A study of Homo sapiens with 6 samples.

Results

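The keratin genes encode the intermediate filament proteins of epithelial cells, and their RNA levels were described in 6 poly(A) RNA-seq libraries of cells that the labels call MKN-45, a line derived from a human gastric adenocarcinoma. Members were all genes of the deposited count table whose symbol is KRT followed by a number and, in some cases, A, B or C, which left out keratin-associated proteins and pseudogenes. This gave 55 genes of the 62700 in the table, 29 of type I and 26 of type II. KRT222, a keratin-like gene, was counted as type I by its place on chromosome 17. The 3 control and 3 NNMT knockdown libraries are said to be independent biological replicates harvested 48 h after transfection. No further allele or agent is named for either group. The labels disagree on the agent, naming shRNA in some fields and siRNA with a lipid reagent in another. They also disagree on the controls, which are called untouched in the design text and a negative-control shRNA in the genotype.

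Keratins are obligate heteropolymers: a type I chain pairs with a type II chain, and the pairs assemble into filaments that are anchored to desmosomes by plakin proteins. Which keratins are made depends on the epithelium. Simple glandular epithelia use KRT8 with KRT18, often with KRT19, KRT7 or KRT20, while stratified epithelia use KRT5 with KRT14 or KRT15 in the basal layer and KRT1 with KRT10 above it. Hair keratins such as KRT81 and KRT86 normally form the hair cortex. Gastric surface epithelium is a simple epithelium, and KRT20 is known from its foveolar cells and from the gut.

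Library totals ran from 40558680 to 56067484 reads, so that a gene with 0 reads could still stand at up to 0.0535 to 0.074 CPM (counts scaled to a library total of 1000000 reads; the floor stands for 3 reads). These floors, and all counting limits here, cover counting error only. Mates were counted singly, so reads of 1 fragment were not independent, and the floors are too low in this respect. NNMT, the targeted gene, had 0, 8 and 12 reads in control replicates 1, 2 and 3 and 2, 8 and 14 reads in replicates 1, 2 and 3 labelled knockdown. Its log2 fold change was 0.48 (SE 0.929, 95% interval -1.57 to 2.53; edgeR quasi-likelihood test, adjusted p = 0.9995). At so few reads in every library, the knockdown could be neither shown nor refuted from the counts. Of 14 gastric and intestinal marker genes, 8 lay below 1 CPM in every library, and CDX1, CDX2 and GKN1 among these had no read. Of the others, MET lay at 398 to 455 CPM, MUC5AC at 3.67 to 42.5 CPM and TFF1 at 1.64 to 8.37 CPM. MET alone supplied most of the summed level of the 14, 413 to 520 CPM per library, and their median was 0.216 CPM. CEACAM5 lay at 0.289 to 26.8 CPM, and TFF2 and MUC13 reached 3.5 and 1.11 CPM. All 10 general epithelial markers had reads in at least 1 library, with sums of 420.3 to 541 CPM per library. CLDN4 alone supplied 334.5 to 446.9 CPM of these sums. EPCAM lay at 17.2 to 40 CPM, and RAB25 at 0 to 1.57 CPM.

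The keratins made up 0.297% to 0.362% of all reads. Of the 55 genes, 11 had a mean of at least 1 CPM over the 6 libraries, 41 lay below 1 CPM in every library, and 14 had no read at all. The 5 most abundant members, KRT81, KRT19, KRT15, KRT8 and KRT7, took 90% to 94% of the keratin reads of a library. Most members of the family were thus at or near the detection limit, and a handful carried nearly all keratin RNA.

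Levels were not spread evenly along the gene clusters. In the chromosome 12 cluster, which holds the type II genes and KRT18, 5 neighbouring genes at one end took 79.4% of the cluster's CPM. These were KRT80, KRT7, KRT86, KRT81 and KRT83. KRT81 alone held 1072 of their 1226 CPM (means over the 6 libraries), while KRT86 and KRT83 held 1.64 and 0.298 CPM. KRT8 and KRT18 at the other end took 19.3%. The 20 genes between these ends took 1.29%, nearly all of it KRT75, and 4 of the 20 had no read. On chromosome 17, KRT15 and KRT19 lie 1087 bases apart and together took 94.9% of the cluster's CPM. A block of KRT10, KRT12 and KRT20 took 4.98%. Next to KRT19 on its far side, the genes KRT9, KRT14, KRT16 and KRT17 summed to 0.233 CPM.

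**Figure D1:**
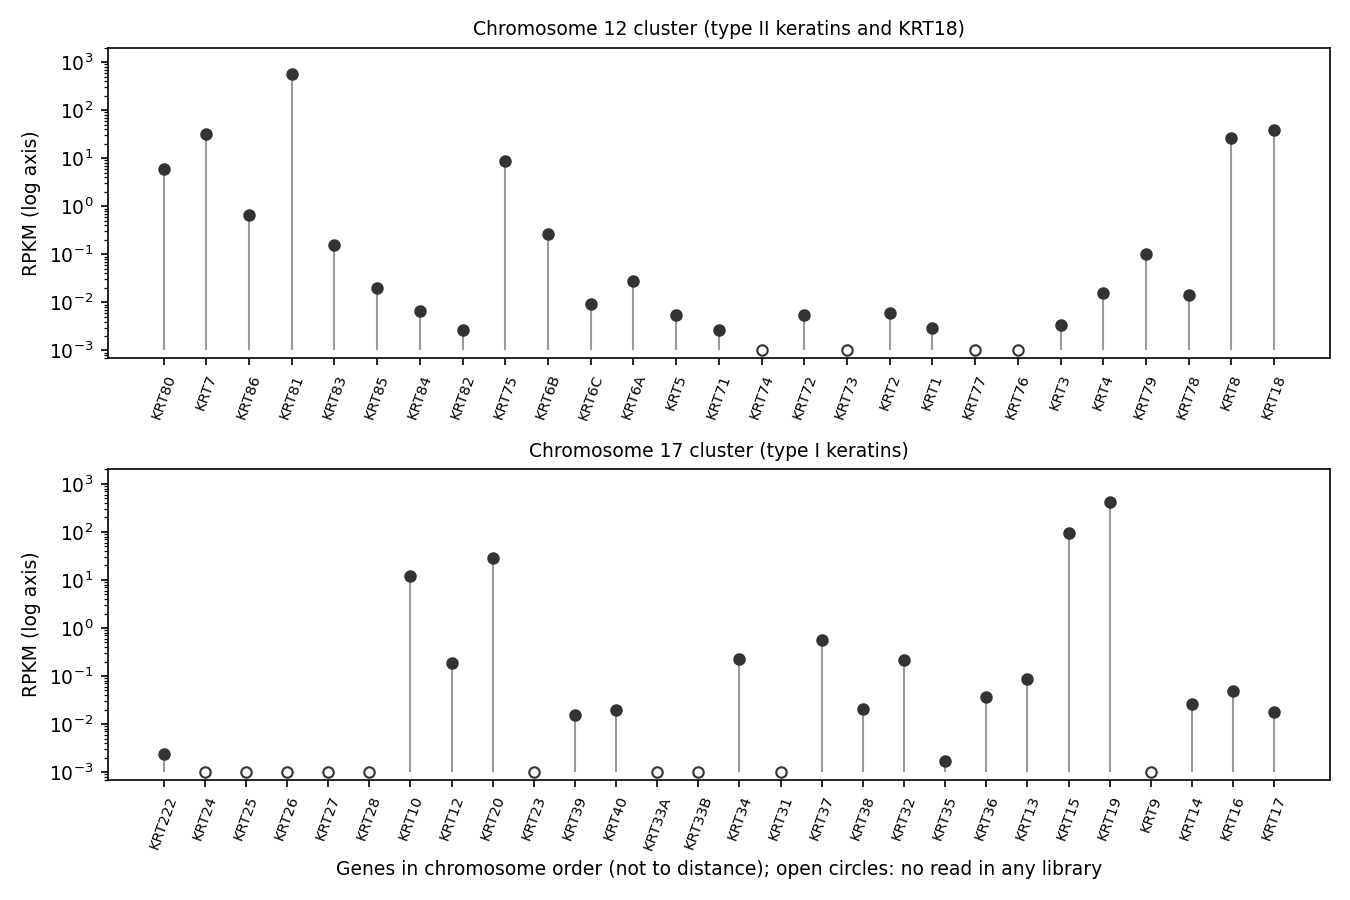
Mean level over the 6 libraries (RPKM, log axis) of each keratin in chromosome order on chromosomes 12 (above) and 17 (below); open circles mark genes with no read in any library. High points stand at KRT81, KRT7, the KRT8 and KRT18 pair, KRT20 and the KRT15 and KRT19 pair, with many low or empty genes between them.

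Per length, the order of the 11 genes at the top depended on the length used. With the merged exon length of the count table, KRT81 stood at 556 ± 142.5 RPKM (CPM per kilobase of transcript; SD, n = 6) and KRT19 at 425 ± 57.6 RPKM, with KRT81 above KRT19 in 6 of 6 libraries. With the length of the principal GENCODE 29 transcript, KRT19 stood at 714.5 RPKM and above KRT81 in 5 of 6 libraries. Their ranges overlapped on both scales, so the order of these highest members is not settled. On the merged length only 28 genes of the table lay above KRT81 and 36 above KRT19.

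KRT15 had the third highest mean on both scales, 94.1 ± 20 RPKM on the merged length. KRT18, KRT7, KRT20 and KRT8 followed at 38.2, 31.5, 28.5 and 26.2 RPKM, and each neighbouring pair of these 4 had overlapping ranges. KRT10, KRT75, KRT80 and KRT86 came last, at 12.3, 8.62, 6.09 and 0.675 RPKM. KRT10 and KRT75, and KRT75 and KRT80, overlapped in range, while KRT86 lay below KRT80 in 6 of 6 libraries.

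**Figure D2:**
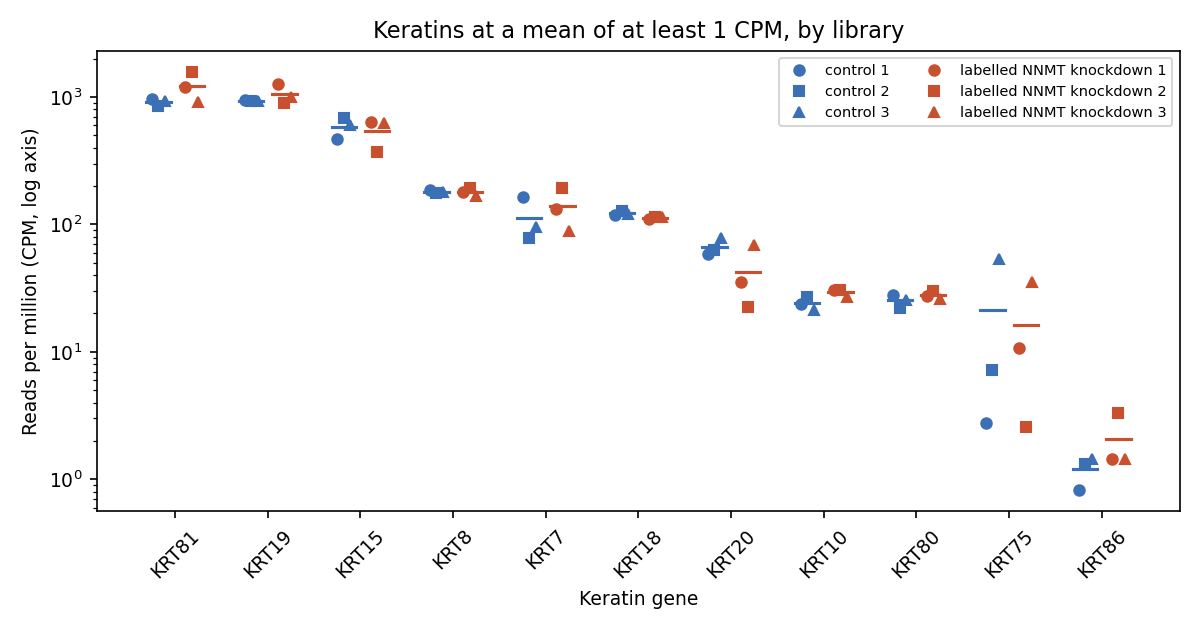
Level in each library (CPM, log axis) of the 11 keratins with a mean of at least 1 CPM; point shapes are replicate numbers, blue is control, red is labelled NNMT knockdown, and bars are group means. KRT8 and KRT18 are tight across libraries, while KRT75 spans from 2.58 to 53.6 CPM.

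Among the simple epithelial keratins, KRT8, the type II partner of KRT18, measured 186, 177 and 178 CPM in control replicates 1, 2 and 3 and 178, 194 and 168 CPM in replicates 1, 2 and 3 labelled knockdown. KRT18, the type I partner, measured 119, 128 and 119.9 CPM in the controls and 111, 114 and 113.5 CPM in the labelled libraries. These were the steadiest of the 11, with coefficients of variation of 4.94% and 5.17% over the 6 libraries. The 3 labelled libraries all lay below the 3 controls for KRT18, and the groups overlapped for KRT8. The ratio of KRT8 to KRT18 was 0.686 ± 0.0499 on merged length (SD, n = 6) and 1.28 ± 0.0928 on principal transcript length, so which partner was the more abundant per length could not be told.

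KRT8 and KRT18 are neighbours on opposite strands (chromosome 12, 52897187 to 52949954 and 52948871 to 52952906, hg38). Their annotated exons share 525 bases, which is 17.1% of the merged exons of KRT18, and reads there fell on more than 1 gene and were not counted. The table also lists 51 pseudogenes of KRT8 and 68 of KRT18. Those of KRT8 held reads equal to 7.39% of the KRT8 reads, and those of KRT18 held 1.83%. The levels of both genes are therefore uncertain in this respect.

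KRT19, a short type I keratin of simple and ductal epithelia, measured 945, 927 and 937 CPM in the controls and 1261, 898 and 991 CPM in replicates 1, 2 and 3 labelled knockdown. The controls lay close together, and the labelled libraries reached from below to above them. KRT7, a type II keratin of ductal epithelia, measured 165, 78.7 and 95.5 CPM in the controls and 133, 193 and 89.3 CPM in the labelled libraries, with overlap. KRT20, the keratin of gut and foveolar cells, measured 58.8, 63.5 and 78 CPM in the controls and 35.2, 22.6 and 68.6 CPM in the labelled libraries. Replicates 1 and 2 labelled knockdown were the lowest for KRT20, and replicate 3 lay among the controls. In bulk RNA, fewer cells with a transcript and less transcript per cell cannot be told apart.

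Hair shaft keratins were present mainly as KRT81. Of 17 members of that group, 14 lay below 1 CPM in every library, KRT31, KRT33A and KRT33B had no read, and KRT81 supplied 99.5% to 99.8% of the group's CPM. KRT81 (chromosome 12, 52285913 to 52291534) measured 968, 848 and 938 CPM in the controls and 1192, 1579 and 906 CPM in replicates 1, 2 and 3 labelled knockdown. Replicate 2 labelled knockdown was the highest, and replicate 3 lay among the controls. KRT86 measured 0.818, 1.33 and 1.45 CPM in the controls and 1.46, 3.33 and 1.45 CPM in the labelled libraries, and KRT83, a further type II hair keratin, lay between 0.161 and 0.683 CPM. Per merged length, KRT81 was 597 to 1488 times KRT86 and 2248 to 5466 times KRT83 in the same library.

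These 3 genes are close copies, which bears on how far the counts can tell them apart. The coding sequence of KRT81 (1518 bases) was identical to that of KRT86 at 90.1% of aligned positions and to that of KRT83 at 89.3%. The longest identical run between KRT81 and KRT86 was 605 bases. Of the 150-base windows of the principal KRT81 transcript, 25.6% occur unchanged in KRT86, and 23.5% of those of KRT86 occur in KRT81. Reads aligned to several places were not counted, and how many such reads these genes lost is not known here. Whether some of the few reads of KRT86 and KRT83 came from KRT81 was not tested. The 60 coding bases where KRT81 and KRT86 differ most show what separates their reads. They start at coding base 1249 of both genes, cross an exon junction, and lie within chr12:52286465-52286821 (minus strand) for KRT81, chr12:52308234-52308432 (plus strand) for KRT86 and chr12:52314790-52315342 (minus strand) for KRT83, in GRCh38. Capitals mark, in KRT86 and KRT83, each base that differs from KRT81, and in KRT81 each position where either copy differs.
KRT81: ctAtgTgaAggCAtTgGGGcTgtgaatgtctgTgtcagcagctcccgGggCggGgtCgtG
KRT86: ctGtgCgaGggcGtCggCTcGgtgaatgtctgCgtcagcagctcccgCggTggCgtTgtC
KRT83: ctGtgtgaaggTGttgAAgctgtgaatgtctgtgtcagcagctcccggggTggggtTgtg
In this stretch KRT86 differs from KRT81 at 14 bases and KRT83 at 7.

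Among the 3 basal keratins of stratified epithelia, KRT15, also known from the hair follicle bulge, was abundant. It measured 467, 684.5 and 598 CPM in the controls and 632, 368 and 620.2 CPM in replicates 1, 2 and 3 labelled knockdown, with overlap and with replicate 2 labelled knockdown the lowest. Its usual type II partner KRT5 had 6 reads, all in replicate 3 labelled knockdown, and the basal type I gene KRT14 had 16 reads in all libraries together. KRT15 was thus present without the rest of the basal set.

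The suprabasal group of 11 held a like case. KRT10, the type I keratin of the upper epidermis, measured 23.7, 27.1 and 21.3 CPM in the controls and 30.4, 30.7 and 26.9 CPM in the labelled libraries. The lowest labelled value, of replicate 3, lay just under the highest control value, of replicate 2. Its usual partner KRT1 had 2 reads in all. KRT12, a keratin of the corneal epithelium, measured 0.577, 1.12 and 0.517 CPM in the controls and 0.0986, 0.0661 and 0.391 CPM in the labelled libraries, and its corneal partner KRT3 had 2 reads. All 3 labelled libraries lay below the controls for KRT12, at 3 to 17 reads against 24 to 54.

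The stress and wound keratins, which are induced in activated keratinocytes, were low. Of these 5 genes only KRT6B had reads in every library, from 0.168 CPM in control replicate 1 to 1.53 CPM in control replicate 3. KRT6A, KRT6B and KRT6C had coding sequences 97.5% to 98.5% identical to each other, so their counts are uncertain. KRT16 and KRT17 held 35 and 15 reads in all. Of 9 inner root sheath genes, which serve the hair follicle lining and its companion layer, 6 had no read, and KRT75 supplied nearly all reads of the group. KRT80, a type II keratin found in many epithelia, measured 28, 22.2 and 25.7 CPM in the controls and 27.4, 30.1 and 26.1 CPM in the labelled libraries, with overlap.

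KRT75 varied the most of the 11, 20.8-fold between its lowest and highest library. It measured 2.74, 7.2 and 53.6 CPM in the controls and 10.7, 2.58 and 35.4 CPM in replicates 1, 2 and 3 labelled knockdown. Its 2 highest libraries were replicate 3 of each group, and KRT6B, 12279 bases further along chromosome 12, had its 2 highest values in the same libraries, 1.53 and 1.01 CPM. In the 4 endothelial marker genes, the summed level was 270 and 239 CPM in these 2 libraries and 125 to 169 CPM in the other 4. KDR carried most of that sum, and 2 of the 4, VWF among them, lay below 1 CPM in every library. The part of these markers in the KRT75 result was not tested.

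Replicate 2 labelled knockdown stood apart for other members. It was the highest of the 6 libraries for 7 of the 17 keratins tested, among them all 5 neighbouring genes KRT80, KRT7, KRT86, KRT81 and KRT83. For KRT80 the margin was small, 30.1 against 28 CPM in control replicate 1, and KRT83 had only 31 reads in replicate 2 labelled knockdown. KRT86 and KRT83 are close copies of the far more abundant KRT81, and whether their counts are separate from its counts was not tested. The 5 genes are therefore not 5 separate observations for certain. Replicate 2 labelled knockdown was the lowest for 6, among them KRT15, KRT19, KRT20 and KRT12. How often it was the highest or lowest over all genes tested was not counted. By the mean chi-square of counts per gene over the whole table, the most unlike pairs were this library with control replicates 2 and 3 (43.6 and 44). With control replicate 1 the value was only 21.1, below the 22.8 between control replicates 1 and 2. On the log2 scale relative to its mean over the libraries, KRT83 stood at 1.19, KRT86 at 1.02, KRT7 at 0.62 and KRT81 at 0.56 in replicate 2 labelled knockdown, against -0.61 for KRT15 and -1.27 for KRT20. Control replicate 1 was low together with it for KRT75 (-2.77 and -2.86) and KRT6B (-1.89 and -1.82). For KRT86, however, control replicate 1 was the lowest library. The 8 fibroblast markers summed to 635 CPM in replicate 2 labelled knockdown and to 328 to 428 CPM in the other 5, with COL1A1 at 510 CPM against 241 to 346 CPM. DCN was the lowest in it, at 0.0881 CPM against 0.264 to 2.35 CPM, THY1 was at 0 in 5 of 6 libraries, and 3 of the 8 lay below 1 CPM in every library. From the gastric and intestinal list, MUC5AC was the highest in this library, at 42.5 CPM against 3.67 to 8.97 CPM. MUC13 of that list was the lowest in it, at 0.132 CPM against 0.197 to 1.11 CPM. The part of these markers in the keratin values was not tested.

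**Figure D3:**
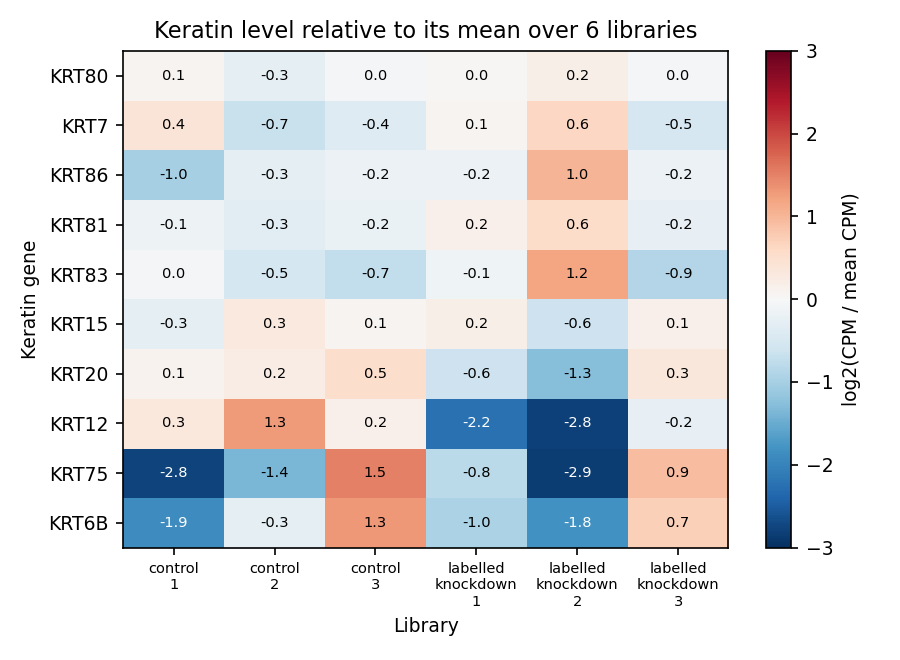
Level of 10 keratins in each library relative to the gene's mean over the 6 libraries, as log2(CPM / mean CPM), with rows grouped by pattern. The chromosome 12 genes of a pattern run in chromosome order, and KRT15, KRT20 and KRT12 in the reverse of it. Replicate 2 labelled knockdown is highest for the 5 genes at the top and lowest for KRT15, KRT20, KRT12 and KRT75, and replicate 3 of each group is highest for KRT75 and KRT6B.

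Summed over the family, keratin reads came to 2996 ± 49 CPM in the controls and 3368 ± 288 CPM in the libraries labelled knockdown (SD, n = 3 each). Replicates 1 and 2 labelled knockdown, at 3616 and 3438 CPM, lay above all controls, while replicate 3, at 3052 CPM, lay just below control replicate 3, at 3053 CPM. Type I genes supplied 54.4%, 61.8% and 57.6% of keratin CPM in control replicates 1, 2 and 3 and 57.3%, 41.7% and 59.8% in replicates 1, 2 and 3 labelled knockdown. By CPM the type I share was thus above that of type II in 5 of the libraries and below it in replicate 2 labelled knockdown. On merged length it was also below in control replicate 1, at 49.4%, and ran from 36% in replicate 2 labelled knockdown to 54.8%. On principal transcript length the shares ran from 44% in that library to 61.3%.

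**Figure D4:**
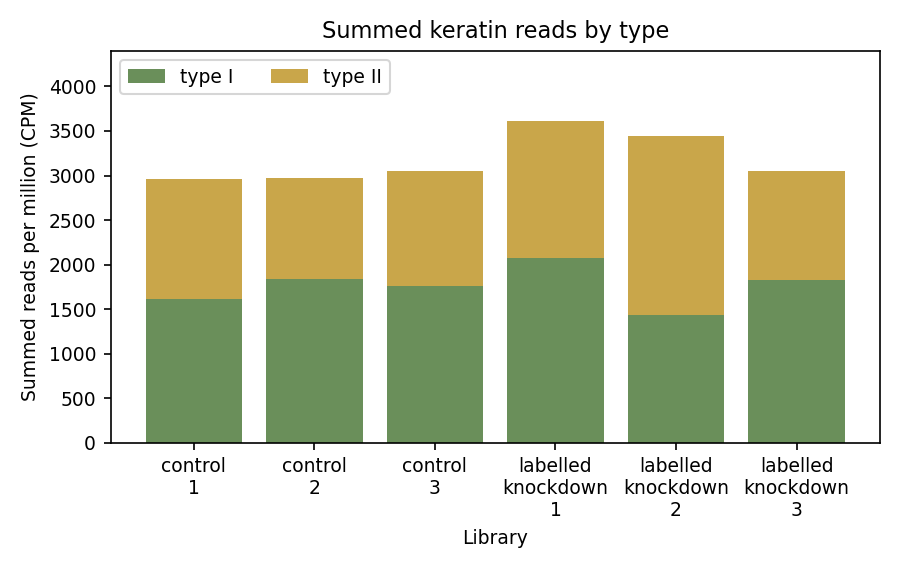
Summed keratin CPM in each library, stacked by type (green, type I; yellow, type II). The type II part is largest in replicate 2 labelled knockdown, where type I makes up 41.7% of the sum.

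The comparison of groups asked whether keratin levels in libraries with the NNMT knockdown label differed from those in control. Of the 55 members, 17 passed the filter on low counts and were tested, and 0 passed the threshold (edgeR's quasi-likelihood test, adjusted p under 0.05), where 0 of 20250 genes (0%) passed over the whole table. At an unadjusted p under 0.05 there were 3 keratins, KRT12, KRT10 and KRT81, against 4.03% of all genes tested. The groups did not overlap for 4 keratins, KRT12, KRT18, KRT34 and KRT86, against 9.17% of all genes. The median log2 fold change of the 17 was 0.141, with 9 above 0 and 8 below, and that of all genes tested was 0.00334. The median of the keratins was 6.77e-05 without replicate 1 labelled knockdown, 0.0534 without control replicate 2, 0.0686 with a filter at 1 CPM and -0.00208 with halved counts. The filter at 1 CPM kept only 12 of the 17 keratins, and the estimate of KRT81 hardly moved there, from 0.417 to 0.415. Halving the counts can also drop low members below the filter. These 2 medians may thus differ because the set of genes differs.

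The lowest p was that of KRT12, with 0.738 ± 0.332 CPM in the controls and 0.185 ± 0.179 CPM in the libraries so labelled (SD, n = 3 each), and a log2 fold change of -1.97 (SE 0.647; edgeR adjusted p = 0.9995). Leaving out control replicate 2 gave -1.54, and leaving out replicate 3 labelled knockdown gave -3.13. KRT10 was at 24 ± 2.93 and 29.3 ± 2.14 CPM, and its log2 fold change was 0.29 (SE 0.116; edgeR adjusted p = 0.9995). KRT81 was at 918 ± 62.3 and 1226 ± 338 CPM, and its log2 fold change was 0.42 (SE 0.174; edgeR adjusted p = 0.9995). This estimate was 0.21 without replicate 2 labelled knockdown and 0.59 without replicate 3. Without the filter on low counts, edgeR's test gave KRT81 an adjusted p of 0.0309 and a SE of 0.103, and called 72 genes (0.19%) in all. DESeq2 called 8 genes (0.041%) and no keratin, with an adjusted p of 0.84 for KRT81, and limma-voom called 0 genes (0%), with an adjusted p of 0.984 for KRT81.

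The intervals show what size of change the data leave possible. For KRT8 the 95% interval of the fold ran from 0.879 to 1.14 around 0.999, and for KRT18 from 0.824 to 1.04 around 0.925. KRT19 had a fold of 1.13 with an interval from 0.918 to 1.38, and KRT15 had 0.932 with an interval from 0.633 to 1.37. The unadjusted intervals of KRT81, from 1.02 to 1.75, and of KRT10, from 1.02 to 1.46, lay above 1, and that of KRT12, from 0.0946 to 0.685, below 1. Of these 7 intervals, all but that of KRT12 lay within 2-fold. For KRT20, with a fold of 0.634, the interval from 0.284 to 1.41 reached beyond 2-fold lower, and for KRT7 it ran from 0.574 to 2.6. The log2 estimate of KRT20, -0.66, was -0.35 when replicate 2 labelled knockdown was left out and -1.20 when replicate 3 was. KRT75 could not be placed, with an interval from 0.0498 to 12.

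Of the 17 hair shaft keratins, 6 passed the filter, 5 had an estimate above 0 and 1, KRT37, below, and none passed in edgeR's test on the filtered genes. KRT34, a type I hair keratin, measured 0.192, 0.29 and 0.321 CPM in the controls and 0.395, 0.484 and 0.529 CPM in the labelled libraries, a log2 fold change of 0.80 (SE 0.458) without overlap. KRT86 had a log2 fold change of 0.79 (SE 0.372), and KRT83 and KRT32 had 0.73 (SE 0.617) and 0.58 (SE 0.504). Whether the counts of KRT86 and KRT83 are separate from those of KRT81 was not tested. Without replicate 2 labelled knockdown the estimate of KRT86 was 0.29 and that of KRT83 was -0.04. KRT32 ran from 0.30 without replicate 1 labelled knockdown to 1.05 without control replicate 3. KRT37, with 0.374 to 1.54 CPM, had an estimate of -0.12 (SE 0.564). The remaining 38 members were too low to test, and none of them exceeded 1 CPM in any library.

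**Figure D5:**
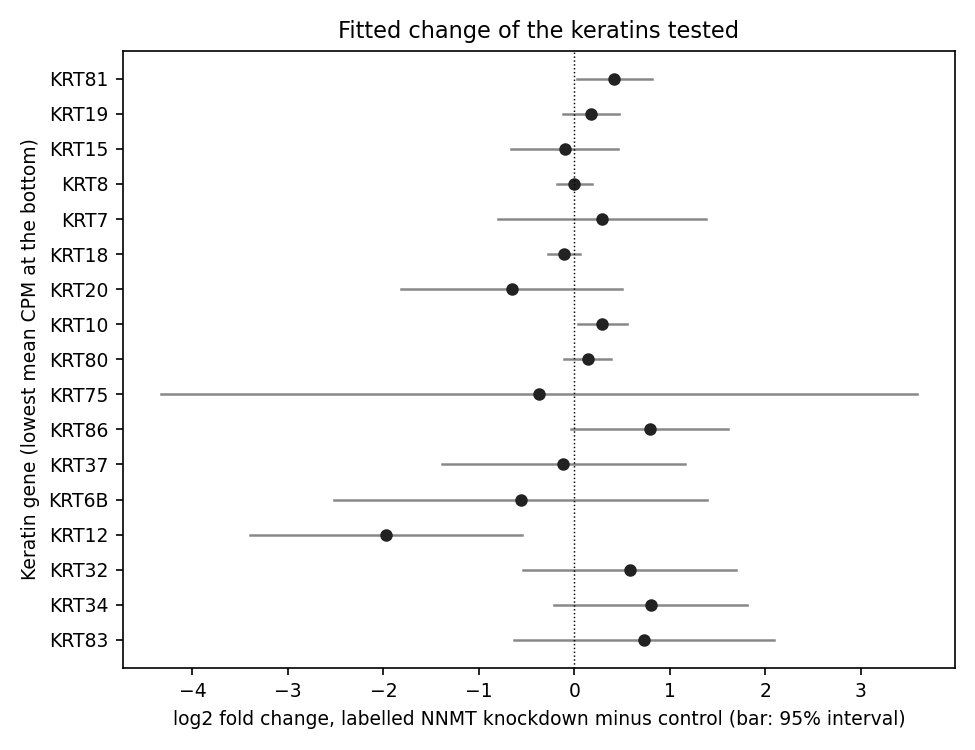
Fitted log2 fold change, labelled NNMT knockdown minus control, of the 17 keratins tested, with 95% intervals; genes are ordered by mean CPM, highest at the top. Intervals are narrow for KRT8, KRT18 and KRT19 and widest for KRT75, and none of the genes passed the adjusted threshold.

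Genes that work with keratins were taken from lists. Of 30 keratin partners, such as the plakins that anchor filaments and the transglutaminases that cross-link them, 28 were tested and 0 passed in either direction in edgeR's test, with 15 above 0 and 13 below. DSP, which encodes the plakin that ties keratin filaments to desmosomes, had the lowest p, with 69 ± 17.5 CPM (mean ± SD, n = 3) in control against 33 ± 8.48 CPM in the labelled libraries and no overlap. Its adjusted p was 0.9995 in edgeR's test, but 5.998e-06 in edgeR's test without the low-count filter and 6.24e-05 in DESeq2. The ubiquitin ligase gene STUB1 and the transglutaminase genes TGM2 and TGM1 came next, with log2 fold changes of 0.30, 0.46 and -0.41. The adjusted p of TGM2 was 0.0311 with edgeR when no filter was applied and 0.84 with DESeq2. PLEC, which encodes plectin, a linker of filaments to other structures, was at 4253 ± 648 CPM in the controls and 4096 ± 119 CPM in the labelled libraries.

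Of 28 transcriptional regulators linked to keratin genes, 22 were tested and 0 passed in edgeR's test, with 7 above 0 and 15 below. GLI2, a hedgehog pathway factor, had the lowest p, with 11.8, 9.98 and 13.2 CPM in the controls and 20.6, 18.8 and 14.5 CPM in the labelled libraries and no overlap. Its adjusted p was 0.9995 in edgeR's test, 0.0131 in edgeR's test without the low-count filter and 0.168 in DESeq2. ESR1, RARG and SP1 came next, with log2 fold changes of -1.34, -0.26 and -0.19. TP63, the master factor of stratified epithelia, had 0.577, 4.09 and 3.05 CPM in the controls and 0.838, 0.749 and 2.74 CPM in the labelled libraries. Of 15 other intermediate filament genes, 12 were tested and 0 passed, and the lowest p were those of PRPH, NEFM, LMNB1 and LMNB2.

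Promoter windows from RefSeq (GRCh38.p14, 250 bases before to 50 after the start) were at hand for 34 of the 55 members. KRT81, KRT19, KRT15, KRT18, KRT7, KRT80 and KRT86 had no entry. The letters TATAAA, read on the gene's strand within the 50 bases before the start, occurred in 15 of the 34 (44.1%), against 2.92% of 27303 windows of all genes. The letters occurred anywhere in the window, on either strand, in 58.8% against 12%. The ratio of observed to expected CpG had a median of 0.14, against 0.58 over all windows. As a family the keratins with an entry thus had windows with more TATA letters and fewer CpG than most genes.

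By level, the letters were found before the start in 1 of the 4 matched members with a mean of at least 1 CPM and in 14 of the 30 below it. Among those 30, 12 had no read, and 8 of these 12 had the letters. The 4 were KRT8, KRT10, KRT20 and KRT75, of the 11 genes at that level, so they are too few to relate the letters to level. The KRT8 window lies inside the annotated span of that gene, not at its outer end. The 100 bases before the start are shown for 4 members as examples, KRT10 and KRT31 with the letters, in capitals, 29 bases before the start, and KRT20 and KRT75 without them. KRT10 had a mean of 26.7 CPM and KRT31 no read, while KRT20 and KRT75 had means of 54.5 and 18.7 CPM. All lie on the minus strand, at chr17:40822615-40822714 for KRT10, chr17:41397609-41397708 for KRT31, chr17:40885243-40885342 for KRT20 and chr12:52434372-52434471 for KRT75.
KRT10: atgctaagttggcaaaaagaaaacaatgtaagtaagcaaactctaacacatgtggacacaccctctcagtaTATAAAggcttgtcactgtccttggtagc
KRT31: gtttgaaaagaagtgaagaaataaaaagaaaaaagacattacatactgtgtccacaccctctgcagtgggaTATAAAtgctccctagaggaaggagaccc
KRT20: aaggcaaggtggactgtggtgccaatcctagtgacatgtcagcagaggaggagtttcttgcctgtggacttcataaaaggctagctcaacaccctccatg
KRT75: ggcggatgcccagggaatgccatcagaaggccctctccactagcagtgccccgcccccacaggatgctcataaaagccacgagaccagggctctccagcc
A match of these letters describes the window and is not evidence of a bound factor.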

How the data were processed

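The authors deposited raw read counts per gene, made with featureCounts 2.0.6 on hg38 with GENCODE 44, per the file headers. Pairs needed both mates aligned and chimeric pairs were dropped, no strand was set, and reads aligned to several places or overlapping several genes were not counted, per the file headers. Mates were counted singly, so 73.4% to 76.7% of counts from 2 to 10 were even. The merged exon length per gene came with the deposited counts. Which aligner was used: not given in the sources used here. All 62700 identifiers matched a symbol.

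CPM and RPKM were computed here from library totals. All 6 libraries entered edgeR 4.0.16 (R 4.3.3; TMM, filterByExpr, robust quasi-likelihood test), with Benjamini-Hochberg adjustment over 20250 genes. DESeq2 1.42.0 and limma 3.58.1 were alternatives, beside other scalings and filters, halved counts, a replicate block and leaving out each library. Groups came from the sample titles. Principal transcript lengths were added after the data were seen. Named genes are NNMT, every keratin past the filter, and up to 4 genes of lowest p per list; PLEC, TP63 and the markers were named after their values were seen. Members and lists were chosen with earlier results of these data known. Coding identities came from pairwise alignment of GENCODE 29 transcripts (Biopython 1.88).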

Additional observations from a re-analysis of the deposited data

How the results depend on the processing

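With another scaling (RLE, upper quartile, library totals), a filter of at least 1 CPM in at least 3 libraries, limma-voom, non-robust dispersion or halved counts, 0 genes and 0 keratins were called. Without a filter on low counts 72 genes and 1 keratin, KRT81, were called, and DESeq2 called 8 genes and 0 keratins. Leaving out 1 library called 0 to 1 genes, the 1 gene without control replicate 3, and 0 keratins. With the replicate number as a replicate block, 0 genes and 0 keratins were called. Same-numbered libraries did not go together as a rule: their deviations from the group means correlated at 0.0659, -0.139 and 0.28 for replicates 1, 2 and 3. Different-numbered pairs ran from -0.335 to 0.238, so that the value of replicate 3 was the highest of any pair.

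Of 265 alternative estimates for single keratins, 253 kept direction and side of the threshold and 11 changed sign, all when 1 library was left out. With each library left out in turn, the estimate of KRT8 ran from -0.0477 to 0.0462 (above 0 without control replicate 1, 0.0316, or replicate 3 labelled knockdown). That of KRT15 ran from -0.247 to 0.116 (above 0 without control replicate 2, 0.0294, or replicate 2 labelled knockdown). KRT75 ran from -1.65 to 1.70 and KRT37 from -0.697 to 0.265, above 0 without control replicate 3 (1.70 and 0.244) or replicate 2 labelled knockdown (0.137 and 0.265). KRT6B ran from -1.58 to 0.529, above 0 without control replicate 3. KRT7 ran from -0.0141 to 0.679 and KRT83 from -0.0371 to 1.09, below 0 without replicate 2 labelled knockdown. Per principal transcript length, KRT81 was at 0.788 times KRT19 and KRT8 at 1.28 times KRT18, against 1.32 and 0.686 on merged length, as the lengths differ. Depth limits the 41 members below 1 CPM.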
